A study of Rattus norvegicus with 144 samples.

Results

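Pancreas was taken from 4 rats that had received AMG B at 3 mg/kg for 14 days (animals 29 to 32) and from the 4 rats that served as controls of the same study at 0 mg/kg (animals 25 to 28). These 8 arrays were chosen by the titles of the samples, out of 144 in the series. The animals were male Sprague Dawley rats of 8 to 10 weeks, dosed by mouth once a day. Only code names are given for the compounds, AMG A and AMG B, whose pharmacology the series describes as antiangiogenic, with doses chosen to give mild to moderate tissue and blood findings. The series holds 36 groups of 4 arrays from liver, adrenal gland and pancreas. Set beside the low dose here were pancreas at 60 mg/kg of AMG B (4 animals, 33 to 36), pancreas at 3 mg/kg of AMG A with the 4 controls of its own study, and adrenal gland and liver of the same 8 animals, all on day 14. What the controls were given as vehicle was not stated. Each value is a deposited score, in which 0 is the mean of a probe set over the arrays of the series and 1 unit its standard deviation, so that differences in score are not folds, and scores of different genes do not rank their RNA. Signal over background was not known, and precision is limited by having 4 arrays a group.

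The pancreas is made mostly of acinar cells, its exocrine part, which make and secrete the digestive enzymes, and holds islets, its endocrine part, that release insulin, glucagon and somatostatin. Both lie on a dense bed of fenestrated capillaries whose upkeep in the adult depends on vascular endothelial growth factor A (VEGF-A), made by epithelial cells, and its receptor VEGFR2 (Kdr) on endothelium. Blocking this signal is known to thin the capillaries of endocrine and exocrine glands and to lower transcripts that VEGF-A maintains in endothelium, among them the Notch ligand Dll4. Injured acinar cells are known to secrete lectins of the Reg family.

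The arrays carried the genes of the labelled tissue. All 5 acinar markers (Pnlip, Cpa1, Cela1, Ctrb1 and Amy2a3) and all 5 islet markers (Ins1, Ins2, Gcg, Sst and Iapp) scored higher on each of the 8 pancreas arrays than on any adrenal or liver array of these animals, and the 4 hepatocyte and 4 adrenal cortex markers scored below their own tissue on every one. Within the treated group the array of animal 30 stood apart. The SD of its scores was 1.985, against 1.163 to 1.332 in the other 3 treated animals and 1.368 to 1.494 in controls, and its correlation with the mean of its group was 0.34, against 0.593 to 0.632. Out of the 24 pancreas arrays it held the highest score for 12.4% of genes and the lowest for 16.3%. A further division ran through the group. The list of lymphocyte and lymph node genes (18 of 21 measured) had a mean score of 3.47 and 3.38 in animals 29 and 31 and of 0.45 and 0.17 in animals 30 and 32, with 0.13 to 0.61 in controls, and animal 33 of the 60 mg/kg group reached 4.93. Among the controls of the AMG A study this mean ran from 0.21 to 6.08, so that arrays with many lymphocyte transcripts occurred without any dose.

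No gene passed the test between 3 mg/kg and control. In the limma model fitted across 14217 genes, 0 had an adjusted p under 0.05 (0%) after Benjamini-Hochberg adjustment, and 1263 (8.88%) had an unadjusted p under 0.05, 498 higher and 765 lower at 3 mg/kg. The 4 treated and 4 control animals did not overlap for 730 genes (5.13%), 311 with all treated animals above and 419 with all below. The smallest adjusted p was 0.139. The count moved with single arrays and settings. It was 1 after quantile normalization, 4 without animal 30, 2 without animal 26, 1 without animal 25 or 27, 0 when any of the other 4 animals was left out, and 0 without animals 29 and 31 of this group and 33 of the high dose. Arrays were also weighted by their agreement with the model. Among the treated, animal 29 had a weight of 1.5, animal 30 of 0.202, animal 31 of 2.26 and animal 32 of 0.753. Animals 29 and 31, with high lymphocyte genes, thus had the most say. With these weights 86 of 14217 genes passed, 40 higher and 46 lower, the 4 that passed without animal 30 among them. The genes below are therefore given by their values, and words such as higher and lower describe these animals.

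The 12 genes of smallest p among those with all treated animals below all controls were Mapk6, Ntsr1, Ece2, Fgf14, Tnfrsf26, Kcnj4, Arhgef12, Fbxo44, Atxn2, Plb1, Osbpl2 and Fgf2. Ntsr1, a receptor for the gut and brain peptide neurotensin, scored 3.40, 4.14, 3.23 and 3.28 in controls and -0.35, 2.87, -0.70 and 0.47 at 3 mg/kg, a difference of -2.94 (SE 0.53, adjusted p = 0.139). Animal 30 alone kept a score near the controls, though below all of them. Without it the adjusted p was 2.6e-05, and after quantile normalization it was 0.0149. Over all settings the adjusted p of Ntsr1 ran from 1.8e-05 with array weights to 0.476 with only these groups fitted. Mapk6, which encodes the atypical MAP kinase ERK3, scored -1.08, -1.14, -0.82 and -1.23 in controls and -1.60, -1.68, -1.67 and -1.86 at 3 mg/kg, a small gap of -0.63 (SE 0.11, adjusted p = 0.139) over a very narrow spread. Ece2, an endothelin-converting enzyme, scored 2.76 to 3.23 in controls, 1.34 to 1.93 at 3 mg/kg and 0.18 to 0.89 at 60 mg/kg. Its step from 3 to 60 mg/kg passed the test (-1.18, SE 0.25, adjusted p = 0.0119), whereas the second Ece2 probe set differed by 0.65 between 3 mg/kg and control, the other way. Fgf2, a heparin-binding growth factor of vessels and epithelium, scored 3.42, 2.76, 2.20 and 3.35 in controls and 0.46, -1.13, 1.04 and 0.67 at 3 mg/kg, a difference of -2.67 (SE 0.60, adjusted p = 0.176), and 0.71 to 1.86 at 60 mg/kg. The doses overlapped for Fgf2, and the step from 3 to 60 mg/kg did not pass the test (1.08, SE 0.60, adjusted p = 0.324). For Arhgef12, a guanine nucleotide exchange factor of RhoA, scores were 1.27 to 1.90 in controls, -0.28 to 0.73 at 3 mg/kg and 1.07 to 1.43 at 60 mg/kg, the last overlapping the controls. A second Arhgef12 probe set differed by 1.15 between 3 mg/kg and control, the other way. Tnfrsf26, a receptor of the TNF superfamily, had a difference of -2.0 (SE 0.41, adjusted p = 0.176). Over the other 6 genes the difference ran from -3.45 for Kcnj4, an inwardly rectifying potassium channel, to -0.89 for Atxn2, an RNA-binding protein, each with an adjusted p of 0.176. Fgf14, an intracellular partner of sodium channels, scored 0.42 to 2.27 in controls and -1.57 to -0.62 at 3 mg/kg, with its second probe set at a difference of 0.91. Kcnj4 scored 4.83, 4.59, 3.22 and 2.25 in controls and -1.32, 0.02, 0.39 and 2.03 at 3 mg/kg, with animal 29 lowest and animal 32 just under the lowest control. Fbxo44, an F-box protein of a ubiquitin ligase, scored 0.83 to 4.52 in controls and -1.02 to 0.49 at 3 mg/kg. Plb1, a phospholipase B, and Osbpl2, an oxysterol-binding protein relative, had 3 mg/kg scores of -1.02 to -0.43 and 0.84 to 1.43 against -0.12 to 0.92 and 2.08 to 3.62 in controls. The other 2 probe sets of Osbpl2 differed by -0.60 and 0.80.

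The 12 with all treated animals above all controls were Hgh1, Cherp, Rab11fip2, Lemd3, Cdc42ep5, Ubn1, Cd200r1l, Mink1, Sf3a2, Suds3, Cpsf3 and Naxd. None passed the test. Sf3a2, a subunit of the U2 small nuclear ribonucleoprotein used in splicing, scored -1.97, -3.16, -2.35 and -3.14 in controls and 0.69, 3.16, -0.98 and 0.39 at 3 mg/kg, a difference of 3.47 (SE 0.81, adjusted p = 0.176). Animal 30 was the highest and animal 31 the lowest of the treated. Cpsf3, the endonuclease that cuts pre-mRNA before polyadenylation, scored -1.21, -0.88, -0.10 and -1.02 in controls and 1.39, 2.23, 2.06 and 0.69 at 3 mg/kg (2.39, SE 0.56, adjusted p = 0.176), and 0.72 to 2.15 at 60 mg/kg. Cherp, a nuclear protein linked to splicing and calcium handling, differed by 1.78 (SE 0.36, adjusted p = 0.176), with -2.29 to -1.18 in controls and -0.51 to 0.51 at 3 mg/kg. Ubn1, part of a histone H3.3 chaperone complex, and Suds3, of the Sin3 corepressor, differed by 1.49 (SE 0.34) and 0.80 (SE 0.19). Lemd3, a protein of the inner nuclear membrane, scored -2.07, -1.04, -1.67 and -1.08 in controls and 0.34, -0.093, 0.24 and 0.41 at 3 mg/kg, while its other 3 probe sets differed by 0.65, 0.52 and -0.25. Mink1, a kinase of the germinal centre family, scored -1.58 to -0.59 in controls and -0.21 to 0.81 at 3 mg/kg. Rab11fip2, which links recycling endosomes to motors, scored -1.94 to -1.65 and -1.22 to -0.80, Cdc42ep5, an effector of Cdc42, -2.02 to -1.10 and -1.01 to -0.13, and Cd200r1l, a relative of the CD200 receptor, -3.03 to -1.65 and -1.10 to 0.43, controls first in each. Hgh1 had the smallest p of the 12, with -3.07, -2.59, -2.35 and -3.01 in controls and -0.28, 0.54, -0.12 and -1.66 at 3 mg/kg (2.38, SE 0.47, adjusted p = 0.176), but its other 2 probe sets differed by -0.39 and 0.14. Naxd, an enzyme that repairs damaged NADPH, had the smallest difference, 0.71 (SE 0.17, adjusted p = 0.186), and its second probe set differed by -0.30. Its step from 3 to 60 mg/kg passed the test, at 0.96 (SE 0.17, adjusted p = 0.00348). Of the 24 genes named in both directions, 19 passed with array weights and 1 without animal 30. Over all 14217 genes 86 and 4 did. The 24 were picked by smallest p on these same arrays, so that their passing is no separate support. For 11 of the 24 the array carried several probe sets, and for 4 of these all probe sets differed in the same direction.

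**Figure D1:**
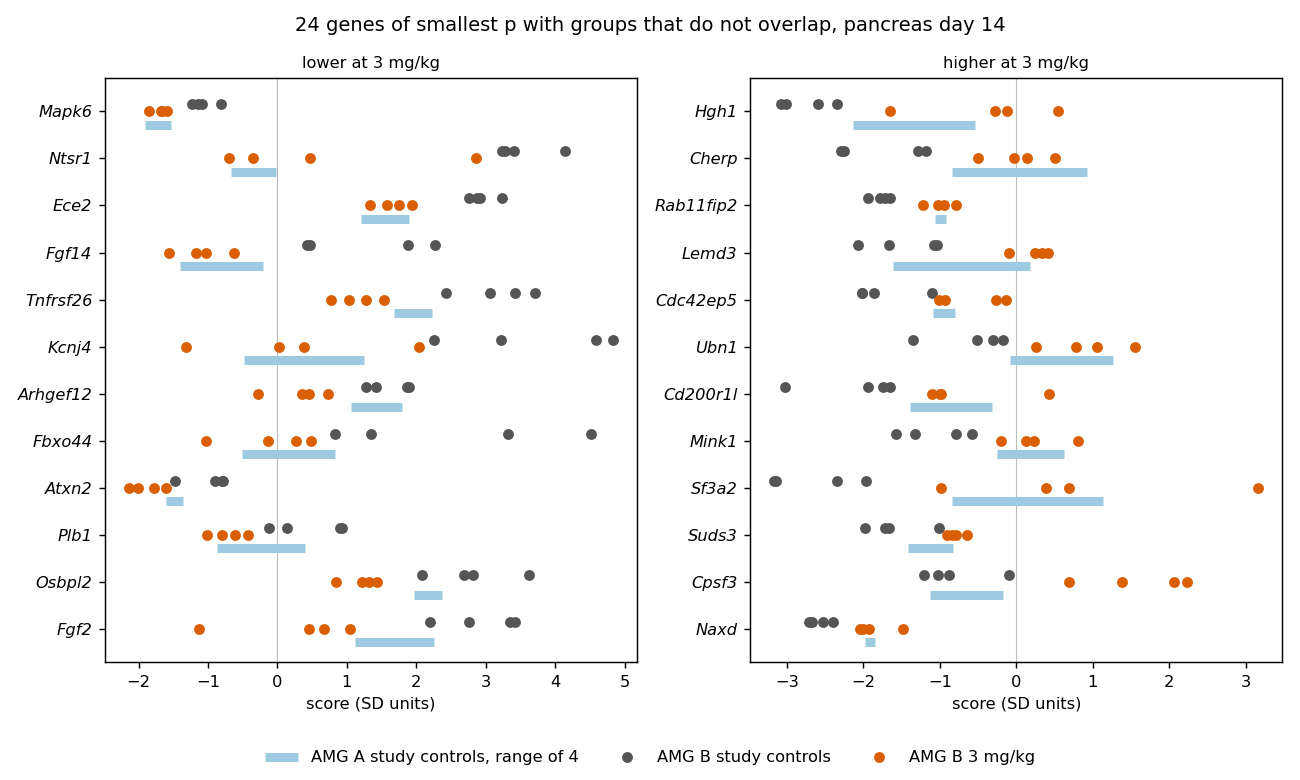
Score of each animal for the 24 genes of smallest p whose groups do not overlap, with AMG B study controls in grey, 3 mg/kg in orange and the range of the 4 AMG A study controls as a blue bar (x axis, score in SD units of the probe set). The grey and orange points do not overlap for any of the 24, by the choice of the genes, and for Ntsr1 the AMG A controls span -0.66 to -0.023.

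The controls of the AMG A study can be set beside these values. For Ntsr1 they scored -0.66 to -0.023, below every control of the AMG B study (3.23 to 4.14) and within the span of the animals given AMG B. For Mapk6 they scored -1.90 to -1.53, with -1.23 to -0.82 in AMG B controls and -1.86 to -1.60 at 3 mg/kg. For Cherp they scored -0.84 to 0.93 and for Sf3a2 -0.84 to 1.13, each above every AMG B control. At these 4 genes the 4 AMG B controls lay outside the range of the AMG A controls. Some animals at 3 mg/kg did too, among them animal 30 for Ntsr1 (2.87) and Sf3a2 (3.16) and animal 31 for Sf3a2 (-0.98). For Cpsf3 the control groups overlapped, with AMG A controls at -1.13 to -0.18 and AMG B controls at -1.21 to -0.10. All probe sets, named or not, were then tested singly, a step chosen after seeing the data. It called 7 probe sets, all lower at 3 mg/kg, 5 of them with no gene symbol. The strongest, a probe set with no symbol, scored 5.39, 5.64, 5.16 and 2.01 in controls and -0.12, -0.47, -0.66 and -0.86 at 3 mg/kg (adjusted p = 0.0011, limma). It scored -0.90 to 1.05 at 60 mg/kg and -0.53 to 0.69 in AMG A controls, so that only the AMG B controls were high among these pancreas groups. Single probe sets of Ifnar1, a chain of the type I interferon receptor, and Syf2, a splicing factor, were the other 2. The Ifnar1 probe set differed by -2.604 (adjusted p = 0.00237), with AMG A controls at -1.94 to -1.13 and 3 mg/kg at -2.58 to -1.68, while the other 5 probe sets of Ifnar1 differed by -0.0079 to 0.74. The Syf2 probe set differed by -2.56 (adjusted p = 0.0216) and the second Syf2 probe set by -0.10. These genes and probe sets were picked for their gap between control and 3 mg/kg, and the control groups of the 2 studies were not tested against each other.

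Genes listed as VEGF-responsive or of tip cells scored mostly lower at 3 mg/kg, and none passed the test unless arrays were weighted. Of the list of VEGF-responsive and tip-cell genes, 21 of 22 were measured, 14 lower and 7 higher, with a median difference of -0.32 against 0.0013 over all genes tested. The count with an unadjusted p under 0.05 and a lower score was 4 (5.38% of all genes), and 5 had every treated animal below every control (2.95% of all genes). These 5 were Dll4, Fam167b, Nr4a2, Esm1 and Lamb1, and Angpt2 alone had every treated animal above (2.19% of all genes). Esm1 and Lamb1 were chosen after their values were seen. The list itself was drawn up with earlier results of these data known, so that it is no independent choice of genes. Dll4, the Notch ligand of endothelial tip cells, scored 2.65, 2.73, 2.15 and 3.43 in controls and 1.64, 2.12, 1.63 and 1.98 at 3 mg/kg, a difference of -0.90 (SE 0.25, adjusted p = 0.276). With array weights Dll4 passed, as 1 of the 21 (-0.98, adjusted p = 0.0451), where 46 of all 14217 genes passed with a lower score. At 60 mg/kg it scored 0.55, 1.06, 0.59 and 0.50, and the step from 3 to 60 mg/kg passed the test (-1.16, SE 0.25, adjusted p = 0.0115). The 3 groups thus lay in the order of dose with no overlap. Fam167b, whose function is little known, scored -0.091, -0.58, -0.22 and -0.67 in controls, -1.17, -1.11, -0.99 and -1.18 at 3 mg/kg and -1.61, -1.69, -2.08 and -1.39 at 60 mg/kg, again without overlap. Its difference at 3 mg/kg was -0.72 (SE 0.23, adjusted p = 0.347), and its step from 3 to 60 mg/kg was -0.58 (SE 0.23, adjusted p = 0.153). The AMG A controls lay across the treated animals, at 1.37 to 2.03 for Dll4 and -1.23 to -0.64 for Fam167b. Aplnr, the apelin receptor of sprouting endothelium, scored 1.75 to 3.27 in controls, 1.27 to 1.75 at 3 mg/kg and 0.53 to 1.22 at 60 mg/kg, with animal 32 level with the lowest control. Nr4a2, a nuclear receptor induced by VEGF, differed by -0.41 (SE 0.18, adjusted p = 0.523). Angpt2, the angiopoietin that loosens vessels, scored -1.29, -0.93, -0.60 and -0.87 in controls and -0.48, -0.47, -0.20 and -0.40 at 3 mg/kg (0.53, SE 0.30, adjusted p = 0.608). Without animals 29, 31 and 33 the median of the list was -0.18. The list mean was 0.17, 0.16, 0.40 and 0.33 in animals 29 to 32, overlapping the controls (0.23 to 0.59). As a set the list did not step down from 3 to 60 mg/kg, with a median of -0.014, 10 higher and 11 lower.

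Among the receptors, Kdr scored 0.38, 0.11, 0.24 and 0.21 in controls and -0.38, -0.22, -0.21 and -0.25 at 3 mg/kg, with no overlap and a difference of -0.50 (SE 0.17, adjusted p = 0.384). At 60 mg/kg it scored -0.71, -0.42, -0.44 and -0.42, a step from 3 mg/kg of -0.23 (SE 0.17, adjusted p = 0.468). The other Kdr probe set differed by 0.50, so that the mean of both probe sets was level (0.0014) and the sign rests on the probe set. Flt1, the VEGF receptor that also acts as a decoy, differed by 0.34 (SE 0.33, adjusted p = 0.789), turning to -0.43 as the mean of its 3 probe sets. Flt4, the receptor of lymphatic vessels, differed by 0.048 (SE 0.19, adjusted p = 0.965), and Tek, the angiopoietin receptor Tie2, by -0.56 (SE 0.36, adjusted p = 0.669). Tek scored -0.52 to 1.12 in controls and -0.70 to 0.54 at 3 mg/kg, overlapping groups, and -1.75 to -0.86 at 60 mg/kg. Among the ligands, Vegfa scored -1.24, -0.997, -1.21 and -1.13 in controls and -0.98, -0.92, -1.19 and -1.22 at 3 mg/kg. Its difference of 0.068 (SE 0.15, adjusted p = 0.923) became -0.096 as the mean of 2 probe sets. From 3 to 60 mg/kg Vegfa rose, to 0.18, -0.36, -0.33 and 0.13 (0.98, SE 0.15, adjusted p = 0.000996). Vegfb, a ligand of Flt1, and Vegfc, the lymphatic ligand, differed by -0.93 (SE 0.50, adjusted p = 0.608) and -0.36 (SE 0.20, adjusted p = 0.619). The list of 10 VEGF ligands and receptors had a median of -0.092, 4 higher and 6 lower, which turned to 0.08 without animal 30. That of 6 angiopoietin and Tie genes was -0.21, 3 higher and 3 lower, with -0.42 without animal 30 and -0.091 without animals 29, 31 and 33.

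General endothelial genes went both ways. Of 27 measured out of 30, 13 scored higher and 14 lower at 3 mg/kg, with a median of -0.14 that became 0.22 with array weights and 0.08 without animal 30. Nos3, the endothelial nitric oxide synthase, scored 4.41, 5.71, 1.33 and 1.32 in controls and 1.06, 1.70, 1.42 and 1.73 at 3 mg/kg (-1.72, SE 0.73, adjusted p = 0.505). Controls 25 and 26 were high, and controls 27 and 28 lay among the treated animals. Ptprb, the phosphatase of Tie2 signalling, differed by -0.67 (SE 0.33, adjusted p = 0.571). In whole tissue, fewer cells of a type and less RNA per cell cannot be told apart. Of 13 basement membrane genes, 6 scored higher and 7 lower (median -0.27, and -0.10 without animal 30), and of 27 hypoxia-inducible and glycolysis genes, 16 scored higher and 11 lower (median 0.07, and -0.013 without animals 29, 31 and 33). Within the latter the glucose transporter Slc2a1 scored 0.99, 1.10, 1.36 and 2.66 in controls and 0.074, -0.37, -0.42 and 0.27 at 3 mg/kg, without overlap (-1.64, SE 0.56, adjusted p = 0.388).

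**Figure D2:**
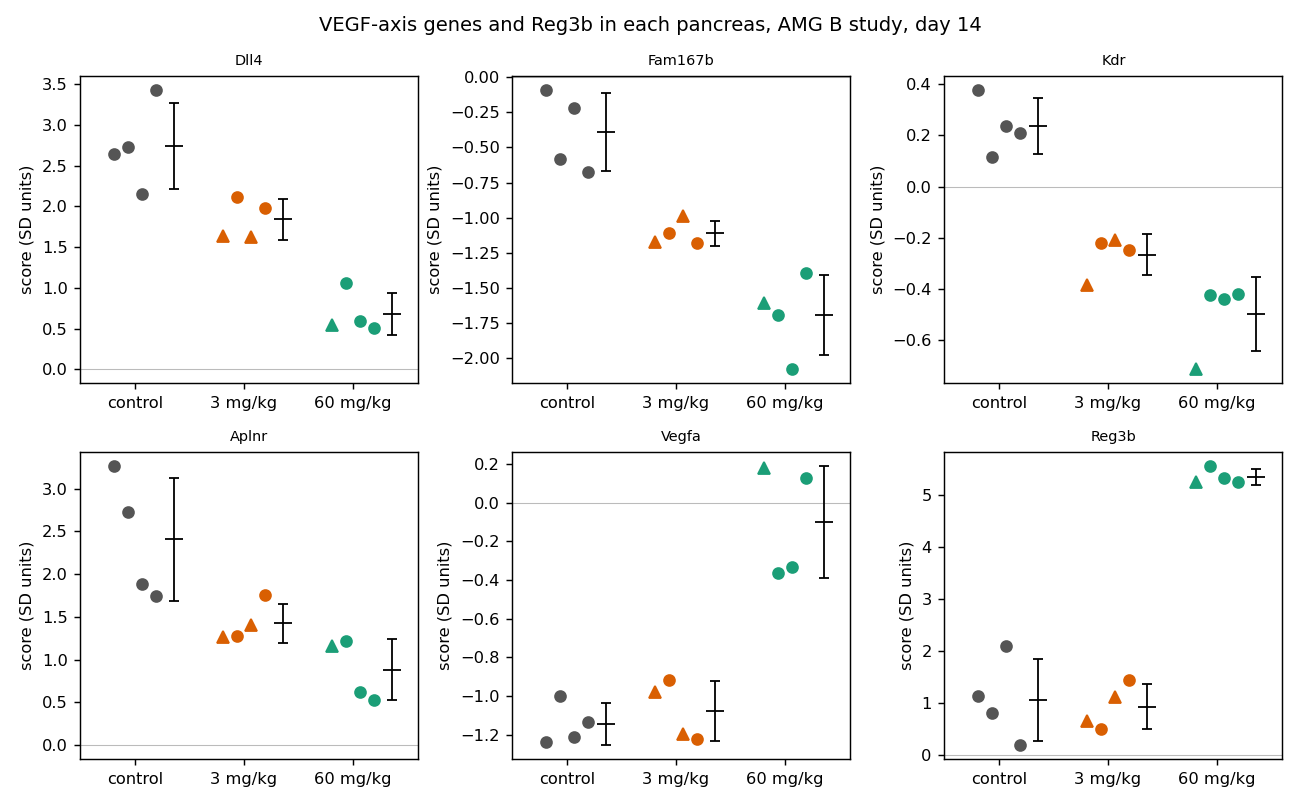
Score of each animal (y axis, SD units of the probe set) for Dll4, Fam167b, Kdr, Aplnr, Vegfa and Reg3b in control, 3 mg/kg and 60 mg/kg pancreas, with the mean and SD of 4 animals as black bars and animals 29, 31 and 33 as triangles. Dll4 and Fam167b step down at each dose, from 2.15 to 3.43 to 1.63 to 2.12 and 0.50 to 1.06 for Dll4, whereas Vegfa and Reg3b at 3 mg/kg overlap the controls and stand above both groups at 60 mg/kg.

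Smooth muscle genes scored mostly higher at 3 mg/kg, and none passed the test unless arrays were weighted. Of 17 measured out of 18 in the list of pericyte and smooth muscle genes, 15 scored higher and 2 lower, with a median difference of 1.03 (0.46 without animals 29, 31 and 33). An unadjusted p under 0.05 with a higher score was met by 3 (3.5% of all genes), and in 3 (Acta2, Lmod1 and Des) every treated animal lay above every control (2.19% of all genes). Des, the filament protein desmin, was chosen after its values were seen. Acta2, smooth muscle actin, scored -1.08, -1.54, -0.56 and -0.97 in controls and 1.14, 0.40, 1.12 and 0.17 at 3 mg/kg, a difference of 1.75 (SE 0.59, adjusted p = 0.373). Lmod1, which nucleates actin filaments in smooth muscle, scored -1.47, -0.79, -1.44 and -2.19 in controls and 0.29, 2.32, 1.32 and -0.53 at 3 mg/kg (2.32, SE 0.72, adjusted p = 0.339). Myh11, the smooth muscle myosin heavy chain, scored -1.13, -1.83, -1.0 and -1.24 in controls and 2.92, -1.01, 3.09 and 1.87 at 3 mg/kg (3.02, SE 1.01, adjusted p = 0.372), with animal 30 level with the controls. Among the treated, array weights gave animals 29 and 31 the most say and animal 30 the least. With them Myh11 passed (3.98, adjusted p = 0.0209), 1 of the 17 to do so. With these weights 40 of all 14217 genes passed with a higher score. The 2 animals with high lymphocyte genes, 29 and 31, had the highest list means, 1.05 and 1.48, against 0.29 and 0.41 in animals 30 and 32 and -0.41 to 0.13 in controls. In AMG A controls the range of Acta2 was -0.76 to 1.51 and that of Myh11 0.77 to 2.76.

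Lymphocyte and macrophage genes split the treated group. Cd3d, of the T cell receptor complex, scored 0.38, 0.39, 0.14 and 0.11 in controls and 4.50, 0.90, 3.82 and 0.35 at 3 mg/kg. Coro1a, a leukocyte actin-binding protein, scored -0.059, -0.045, -0.18 and -0.13 in controls and 4.41, -0.01, 4.21 and -0.061 at 3 mg/kg. Animals 29 and 31 were high and animals 30 and 32 lay near the controls. The difference for Cd3d was 2.14 (SE 1.31, adjusted p = 0.653) and for Coro1a 2.24 (SE 1.49, adjusted p = 0.685). Of the 18 lymphocyte genes 17 scored higher and 1 lower, with a median of 1.72 (2.61 with array weights). The median shrank to 0.067 without animals 29, 31 and 33. For 15 macrophage genes, 11 higher and 4 lower, the median of 0.78 turned to -0.14. Psmb9, an immunoproteasome subunit, divided the animals likewise, at -1.21, -1.43, -1.40 and -1.13 in controls and 0.76, -1.01, 1.04 and -1.23 at 3 mg/kg. Of 21 interferon-inducible genes 16 scored higher and 5 lower, with a median of 0.26 and 0.042 without these animals. Inflammatory cytokine and neutrophil genes (15 measured) had a median of 0.013, and 0.10 without animal 30. Genes of fat, of skeletal muscle and of erythroid cells had medians of -0.31 (13 measured), -0.0038 (11) and -0.067 (7). Without animal 30 these were -0.16, -0.068 and -0.11, and without animals 29, 31 and 33 they were -0.47, -0.00081 and 0.41.

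**Figure D3:**
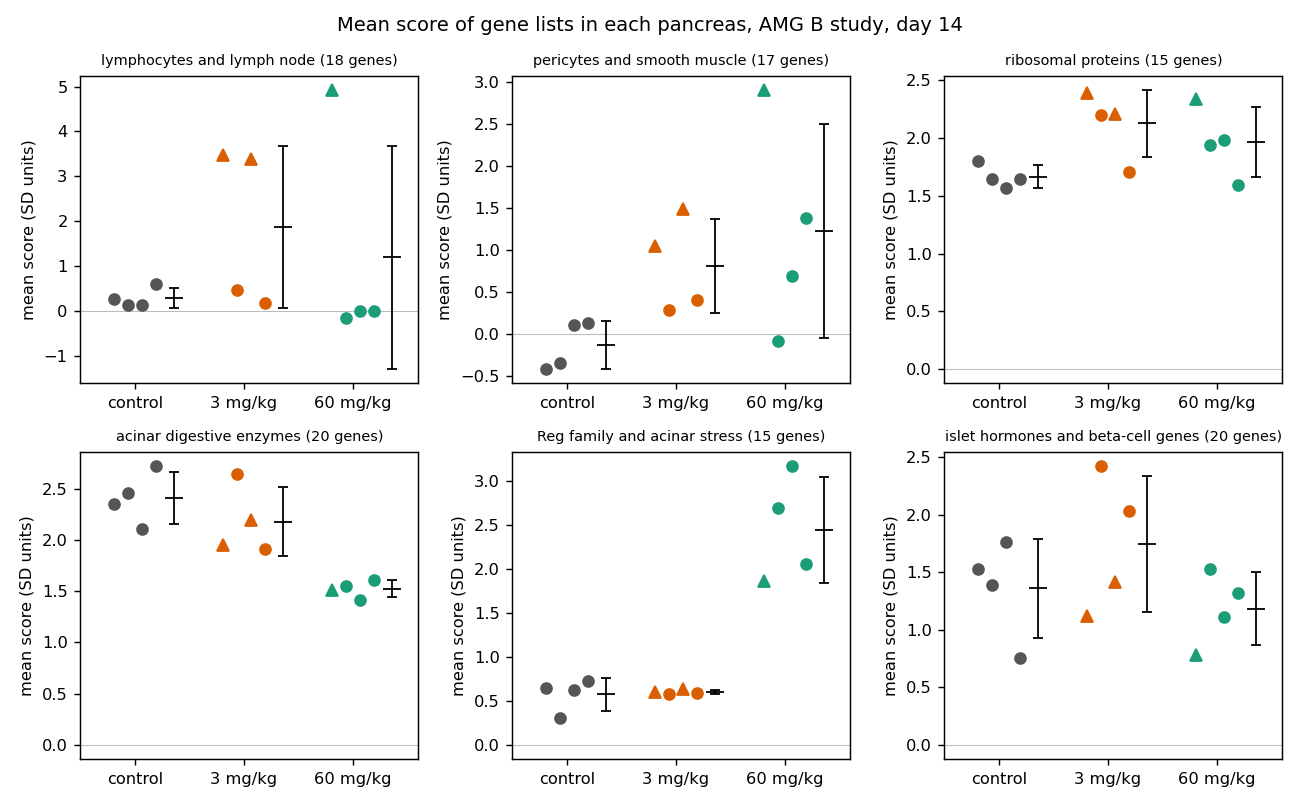
Mean score of 6 gene lists in each animal (y axis, SD units) for control, 3 mg/kg and 60 mg/kg pancreas, with the mean and SD of 4 animals as black bars and animals 29, 31 and 33, which had high lymphocyte genes, as triangles. The treated group at 3 mg/kg splits into 3.47 and 3.38 against 0.45 and 0.17 for lymphocyte genes, while the Reg list at 3 mg/kg (0.57 to 0.63) lies within the controls (0.31 to 0.73).

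Acinar enzymes scored slightly lower at 3 mg/kg, and none passed the test. Of 20 measured out of 26, 18 were lower and 2 higher, with a median difference of -0.34, or -0.45 to -0.21 under 4 other settings (quantile normalization, array weights, without animal 30, and without animals 29, 31 and 33), and 8 had an unadjusted p under 0.05 with a lower score (5.38% of all genes). The groups overlapped for all 20. Pnlip, pancreatic lipase, scored 2.83, 2.74, 2.30 and 3.09 in controls and 2.27, 2.70, 2.36 and 2.16 at 3 mg/kg (-0.37, SE 0.17, adjusted p = 0.538). Cel, the bile salt-stimulated lipase, had the smallest p of the list, with 2.82, 2.65, 2.39 and 3.14 in controls and 2.34, 2.54, 2.20 and 2.21 at 3 mg/kg (-0.43, SE 0.16, adjusted p = 0.444). Ctrb1, a chymotrypsinogen, and Cpa1, a carboxypeptidase, differed by -0.41 (SE 0.17) and -0.37 (SE 0.18), Amy2a3, an amylase, by -0.29 (SE 0.18) and Cela1, an elastase, by -0.30 (SE 0.20). Animal 30 scored highest of the treated in Pnlip, Cel, Ctrb1, Cpa1, Amy2a3 and Cela1, and control 28 the highest of all. The controls of the AMG A study scored 2.01 to 2.62 for Pnlip, against 2.16 to 2.70 at 3 mg/kg. Acinar transcription factors and secretory proteins (16 of 19 measured) had a median of -0.22 (-0.26 to -0.05 under the 4 settings), 13 lower and 3 higher. Ptf1a, the factor that keeps acinar identity, scored 2.77, 2.43, 2.04 and 2.87 in controls and 1.97, 1.76, 1.70 and 2.39 at 3 mg/kg (-0.57, SE 0.30, adjusted p = 0.591). Nr5a2, a nuclear receptor of acinar genes, differed by -0.77 (SE 0.41, adjusted p = 0.601). Animals 29 and 31, which were rich in lymphocyte genes, had enzyme list means of 1.95 and 2.20, and animals 30 and 32 had 2.64 and 1.91.

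At 3 mg/kg acinar stress genes scored as in controls within the spread of the animals. The list of Reg and acinar stress genes (15 of 16 measured) had a median of -0.10 (-0.10 to 0.027 under the 4 settings), 7 higher and 8 lower. Reg3b, the pancreatitis-associated lectin, scored 1.14, 0.80, 2.09 and 0.19 in controls and 0.65, 0.51, 1.11 and 1.44 at 3 mg/kg, a difference of -0.13 (SE 0.39, adjusted p = 0.95) with a 95% interval of -0.94 to 0.69. At 60 mg/kg it scored 5.24, 5.56, 5.32 and 5.25. Reg1a differed by -0.11 (SE 0.30, adjusted p = 0.941), with an interval of -0.74 to 0.52. Duct and epithelial injury genes (16 of 19 measured) had a median of -0.10, 5 higher and 11 lower. Krt18, a keratin of simple epithelium, had no overlap, at 1.65, 1.37, 1.37 and 1.29 in controls and 0.76, 0.98, 0.78 and 0.76 at 3 mg/kg (-0.60, SE 0.34, adjusted p = 0.613), and it rose from 3 to 60 mg/kg (1.19, SE 0.34, adjusted p = 0.0467). ATF4 stress genes (20 measured) and ER chaperones (25 measured) had medians of -0.079 and 0.018, with ranges of -0.17 to 0.10 and -0.059 to 0.15.

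Islet genes were spread by animal. Of 20 measured out of 28, 17 scored higher and 3 lower, with a median of 0.30 that became 0.064 without animal 30, 0.011 with array weights and 0.68 without animals 29, 31 and 33. The list mean was 2.43 and 2.03 in animals 30 and 32 and 1.12 and 1.41 in animals 29 and 31, with 0.76 to 1.76 in controls, and the animals with few lymphocyte transcripts had the higher islet means. Ins1, the first of the insulin genes, scored 2.59, 2.55, 2.44 and 1.995 in controls and 2.19, 2.89, 2.52 and 2.39 at 3 mg/kg, a difference of 0.10 (SE 0.19, adjusted p = 0.908). Ins2, the other insulin gene, scored 2.67, 2.6, 2.54 and 2.28 in controls and 2.23, 2.82, 2.63 and 2.40 at 3 mg/kg (SE of the difference 0.20, adjusted p = 1). The groups overlapped for both insulin genes. Glucagon (Gcg) and somatostatin (Sst) differed by 0.40 (SE 0.38, adjusted p = 0.782) and 0.56 (SE 0.91, adjusted p = 0.884). Pcsk2, the convertase that matures glucagon and insulin, had the smallest p, with 1.61, 2.04, 2.66 and 0.17 in controls and 1.18, 3.90, 2.57 and 5.82 at 3 mg/kg (1.75, SE 0.76, adjusted p = 0.514). Kcnj11, the pore of the beta-cell ATP-sensitive potassium channel, went the other way without overlap, at 2.80, 3.10, 2.24 and 2.85 in controls and 1.40, 2.11, 1.51 and 2.23 at 3 mg/kg (-0.93, SE 0.55, adjusted p = 0.631).

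Ribosomal protein genes scored mostly higher at 3 mg/kg, and none passed the test. The list mean was 2.39, 2.20, 2.21 and 1.71 in animals 29 to 32, with animal 32 within the controls (1.57 to 1.80). Of 15 measured out of 30, 14 were higher and 1 lower, with a median of 0.49 (0.36 without animals 29, 31 and 33), 6 had an unadjusted p under 0.05 with a higher score (3.5% of all genes), and in 7 every treated animal lay above every control (2.19% of all genes). Rps15 scored 2.02, 1.88, 2.03 and 1.46 in controls and 2.49, 2.66, 2.52 and 2.10 at 3 mg/kg (0.60, SE 0.19, adjusted p = 0.339). Rpl7 scored 1.15, 1.20, 0.94 and 1.37 in controls and 2.49, 1.67, 2.24 and 1.57 at 3 mg/kg (0.83, SE 0.31, adjusted p = 0.423), with animals 29 and 31 highest. In AMG A controls Rps15 ran from 2.04 to 2.12 and Rpl7 from 0.79 to 1.90. Guca2a, the intestinal hormone guanylin, had the smallest p in the list of intestinal epithelium (11 measured, median -0.12, range -0.08 to -0.0065), at 1.02, 4.71, 2.93 and 3.62 in controls and 0.09, -1.47, 0.80 and 0.89 at 3 mg/kg (-2.99, SE 0.72, adjusted p = 0.186), and Cdx2, the intestinal homeobox factor, scored 1.57 to 3.58 and 0.34 to 1.45. The lists of cell cycle (37 measured), interstitial matrix (22), proteasome (24), neuroendocrine granule (12) and immediate early genes (17) had medians of 0.26, 0.091, 0.09, 0.22 and 0.044. Under the 4 settings these ran from 0.04 to 0.29, -0.0084 to 0.12, -0.23 to 0.33, 0.035 to 0.60 and -0.043 to 0.14, so that the sign of matrix, proteasome and immediate early genes turned without animals 29, 31 and 33. Those of glucocorticoid-responsive (13), circadian clock (16) and respiratory chain genes (24) had -0.14, -0.11 and -0.082, with ranges of -0.20 to 0.16, -0.29 to -0.12 and -0.11 to -0.013. Those of NRF2 (13), aryl hydrocarbon receptor (7), sterol synthesis (17), fatty acid synthesis (13), fatty acid oxidation (17) and hepatocyte genes (13) had medians between -0.065 and 0.042, and between -0.17 and 0.10 under the 4 settings. Cyp1a1, the classic target of the aryl hydrocarbon receptor, differed by -0.018 (SE 0.074, adjusted p = 0.968), and Ifitm10 by 0.0082 (SE 0.15, adjusted p = 0.996).

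How far the low dose was from the high dose was asked directly, with no control in the difference. The SE and adjusted p took the spread from all 24 pancreas arrays, controls among them. From 3 to 60 mg/kg 713 genes (5.02%) passed the test, 493 rising and 220 falling. The count fell to 302 without animal 30, 441 without animal 32 and 426 without animal 35, to 420 with a filter on low scores and to 5 when only these 8 arrays were fitted. Of 15 in the Reg list 7 rose (3.47% of all genes), with a median of 1.77 against 0.028 over all genes. Reg3b rose by 4.42 (SE 0.39, adjusted p = 2.19e-06), and Atf3, a stress-induced transcription factor, by 4.27 (SE 0.86, adjusted p = 0.00901), from -0.52, 0.011, -0.10 and -0.26 to 1.12, 6.33, 4.21 and 4.58. Of 20 acinar enzymes 15 fell (1.55% of all genes), with a median of -0.71. Pnlip fell to 1.61 to 1.74, a step of -0.72 (SE 0.17, adjusted p = 0.0199), and Amy2a3 showed a step of -0.90 (SE 0.18, adjusted p = 0.00767). Ins1 and Ins2 fell too, with steps of -0.79 (SE 0.19, adjusted p = 0.0237) and -0.83 (SE 0.20, adjusted p = 0.0237). The largest rises by score were in Tspan1 (4.68), a tetraspanin of epithelia, Reg3b, Prm2 (4.28), Atf3, Stac2 (4.26) and Lrguk (4.18). The largest falls were in Nell1 (-4.97), Prrt3 (-4.02), Sftpc (-3.50), Brd3 (-3.28), Fbxo41 (-3.13) and Acvr2b (-3.0), an activin receptor. Stac2 and Prrt3 did not overlap between the doses, at -1.28 to 0.74 and 0.78 to 1.44 at 3 mg/kg against 3.54 to 3.92 and -3.50 to -2.41 at 60 mg/kg. At 3 mg/kg these 12 genes differed from control by -0.99 (Atf3) to 0.77 (Fbxo41), each with an adjusted p of 0.689 or above. With only the 8 arrays of both doses fitted in limma, Reg3b (adjusted p = 0.000589) and Prrt3 (0.00233) still passed. Tspan1, Prm2, Atf3, Stac2 and Lrguk did not (0.0637 to 0.290). Prrt3 was then the only fall to pass, so those of the acinar enzymes, Ins1, Ins2, Ece2 and Dll4 did not.

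The low dose was also set against AMG A at the same 3 mg/kg and day, each against the controls of its own study, the only matched pair of compound and dose in pancreas. Neither dose called a gene in limma, and AMG A had 556 genes (3.91%) with an unadjusted p under 0.05. For the difference of the 2 effects 0 genes passed (0%) and 1488 (10.5%) had an unadjusted p under 0.05. The count was 6 with array weights and 1 without animal 30. The 3 highest and 3 lowest by p were Cherp (2.75, 95% interval 1.68 to 3.82), Hoxb4 (1.11, 0.66 to 1.57), Mink1 (2.14, 1.24 to 3.04), Ece2 (-1.76, -2.50 to -1.01), Ntsr1 (-3.64, -5.20 to -2.08) and C2cd4a (-5.07, -7.53 to -2.62), with adjusted p between 0.252 and 0.31. These genes were picked by smallest p on these same arrays, so that their unadjusted intervals are no separate support. Cherp, Mink1, Ece2 and Ntsr1 were also picked above for their gap between control and 3 mg/kg. Under AMG A alone Cherp differed from control by -0.97 and Ntsr1 by 0.70. For Ntsr1 and Dll4 every AMG B control scored above every AMG A control, and for Cherp every one scored below. For Dll4 the AMG A controls also overlapped the animals given AMG B at 3 mg/kg. A difference between compounds thus takes in the gap between the control groups, which was not tested. For Dll4 the difference between compounds was -0.997 (SE 0.35, adjusted p = 0.425), with an interval of -1.73 to -0.27. Under AMG A alone Dll4 differed from control by 0.10. For Fam167b it was -0.91 (SE 0.33, adjusted p = 0.426), interval -1.59 to -0.23, and for Kdr -0.50 (SE 0.24, adjusted p = 0.483), interval -1.001 to 0.0061. For Vegfa, Pnlip and Reg3b it was -0.24 (-0.67 to 0.20), -0.22 (-0.72 to 0.28) and 0.30 (-0.86 to 1.46). A p past the threshold for none does not show that the compounds act alike, and the intervals of Vegfa, Pnlip and Reg3b hold differences in either direction. The list of VEGF-responsive and tip-cell genes had a median of -0.20 under AMG A, 7 higher and 14 lower. Its difference between compounds had a median of 0.032, 11 higher and 10 lower. General endothelial genes had a median of -0.40 under AMG A, 6 higher and 21 lower. Smooth muscle genes had a median of -0.63 and lymphocyte genes of -2.15 under AMG A. There 2 of the 4 controls had high lymphocyte list means (6.08 and 2.43).

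**Figure D4:**
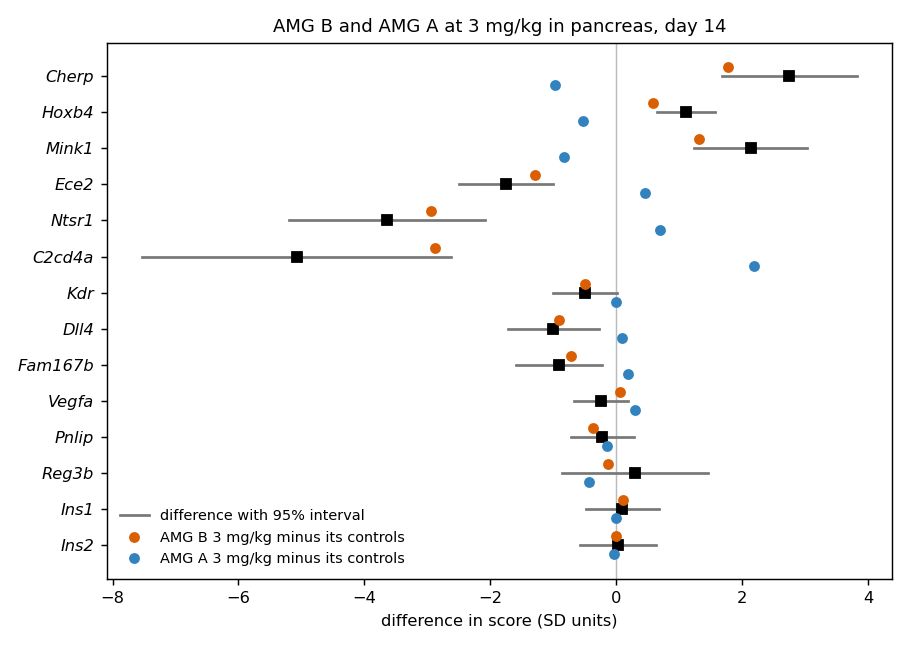
Difference in score (x axis, SD units) between 3 mg/kg and control for AMG B in orange and AMG A in blue, and the difference between these effects as black squares with 95% intervals, for 14 genes in pancreas on day 14. The interval of Ntsr1 spans -5.20 to -2.08 and that of Reg3b -0.86 to 1.46, and none of the 14 passed the adjusted test. Cherp, Hoxb4, Mink1, Ece2, Ntsr1 and C2cd4a were picked by smallest p of the difference between these effects, and the intervals are not adjusted for that choice.

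Adrenal gland and liver of the same 8 animals gave the comparison across tissues. In a model of all 24 arrays of the 3 tissues, 2 genes (0.0141%) passed in adrenal and 7 (0.0492%) in liver at 3 mg/kg. This model took the spread of a gene from the 3 tissues together. Its SE and adjusted p therefore do not measure the spread between the pancreas arrays alone. The effect in pancreas differed from that in adrenal for 27 genes (0.19%), 8 higher and 19 lower, and from that in liver for 48 (0.338%), 22 higher and 26 lower. Both counts fell to 0 when only the compared tissues were fitted. Without 1 animal the count against adrenal was 12 (animal 25), 0 (26), 58 (27), 7 (29), 67 (30), 8 (31) or 208 (32), and that against liver was 18 (25), 12 (26), 101 (27), 24 (28), 7 (29), 111 (30), 3 (31) or 214 (32). With the animal as a block the counts were 36 and 77. For Ntsr1 the effect in pancreas differed from that in adrenal by -3.37 (SE 0.69, adjusted p = 0.0499), with differences from control of 0.43 in adrenal and 0.055 in liver. Fgf2 differed from adrenal by -2.79 (SE 0.53, adjusted p = 0.0394) and from liver by -2.81 (SE 0.53, adjusted p = 0.0296). Tnfrsf26 and Ece2, members of the 24 above, had differences from adrenal of -2.005 (SE 0.29, adjusted p = 0.00775) and -1.37 (SE 0.20, adjusted p = 0.00775), and from liver of -1.96 (SE 0.29, adjusted p = 0.00811) and -1.28 (SE 0.20, adjusted p = 0.00996). Cherp was higher against adrenal (1.86, SE 0.38, adjusted p = 0.0499), and Sf3a2 against liver (3.59, SE 0.75, adjusted p = 0.0416). Ntsr1, Fgf2, Tnfrsf26, Ece2, Cherp and Sf3a2 were picked above for their gap on these same pancreas arrays. The same scores enter this comparison, so that passing it is no separate support for them. Fam167b differed by -1.12 (SE 0.33) in adrenal and -0.26 in liver, and pancreas and adrenal differed by 0.40 (SE 0.47, adjusted p = 0.818). Tek differed by -1.12 (SE 0.34) in adrenal. Neither Fam167b nor Tek passed the test in adrenal. Dll4 differed by -0.0079 in adrenal and 0.026 in liver, and its effect in pancreas against adrenal was -0.89 (SE 0.27, adjusted p = 0.167).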

How the data were processed

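RNA from 3 tissues was hybridised to rat expression arrays after one-cycle biotin labelling from 5 ug of total RNA, per the labels' protocols. The deposited values are scores whose own spread shows each probe set centred and scaled over the arrays, a step that no label or header records. In the table used, of 31042 probe sets and 108 arrays, the median probe set mean was 0.0217 and the median SD 1.01, with scores from -9.5 to 11.9. Not given in the sources used here were the scanner software, the summary of signal and whether scores came from a log or a linear scale, so each difference is in SD units and no fold was computed. A smaller table, of AMG A liver on another array, was not used here.

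Of the probe sets, 20826 had 1 gene symbol, 436 had several and 9780 had none. Those with 1 symbol were matched by Entrez number to the RefSeq gene table of assembly GRCr8 for 20758, and 0 symbols were updated. Each of 14217 genes was read from 1 probe set, that whose variance lay most between tissues, and 4525 had several. Scores were fitted in limma 3.58.1 (R 4.3.3, lmFit and eBayes with a trend) on all 24 pancreas arrays in 6 groups of 4, with Benjamini-Hochberg adjustment over all genes and a threshold of 0.05. Effects were compared between tissues in a like model of the 24 arrays of pancreas, adrenal gland and liver. Figures were drawn with Python 3.11.15 and matplotlib 3.10.9. The model was also run on simulated scores with known differences.

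Same-numbered samples of different tissues came from the same animal, per the labels' animal numbers. Deviations from group means of the same animal correlated with a median of 0.0213 between pancreas and adrenal and 0.0104 between pancreas and liver, against -0.00267 and 0.00397 for different animals. The labels number the animals, and p-values measure the spread between them. The highest correlation between any 2 pancreas arrays was 0.727, and no pair was taken for 1 library.

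Alternatives were quantile normalization, the mean of a gene's probe sets, array weights, a filter keeping genes that exceed percentile 40 of scores on 4 or more arrays, the compared groups only, the animal as a block, and leaving out each animal. Leaving out animals 29, 31 and 33 together and testing probe sets singly were added after seeing the data. The members, lists and tests were chosen with earlier results of these data known. Genes were named by rule: up to 12 in each direction for 3 mg/kg against control, by score among genes passing the test or else by smallest p among genes whose groups did not overlap; up to 4 of smallest p in each list; 18 genes read in any case; and up to 6 in each direction for a difference of effects, or 3 by smallest p where none passed. Genes with placeholder symbols were not named.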

Additional observations from a re-analysis of the deposited data

Results flagged for a closer look

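Single animals stood far from the other 3 of their group, by the gap to the nearest over the range of the group, in 8 of 234 groups of values examined. Chance gives about 1 in 20, so that the count is no higher than chance gives. Animal 30 had the array correlation of 0.34 with its group and was the highest of its group for Cd200r1l (0.431) and Krt18 (0.984). Control 27 was the lowest control for Atxn2 (-1.48) and Lamb1 (1.03) and the highest for Flt4 (0.0516). Control 28 had the lowest mean of the ER chaperone list (0.923, with 1.26 to 1.30 in the others) and the highest of the adipocyte list (1.99, with -0.104 to 0.0481).

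Effects at 3 mg/kg that differed between pancreas and adrenal by the test of the difference were higher in pancreas for Zdhhc16 (2.70), Acd (2.21), a shelterin subunit, Uqcr11 (1.99), of respiratory complex III, Iffo1 (1.91), Wscd1 (1.88) and Cherp (1.86). They were lower for Aasdhppt (-3.67), which attaches the phosphopantetheine group to carrier proteins, Ntsr1 (-3.37), Fgf2 (-2.79), Odad3 (-2.66), of ciliary dynein docking, Grin2a (-2.31), an NMDA receptor subunit, and Lrrn2 (-2.18). In pancreas the other probe sets of Iffo1 differed by 0.28 and -0.33 between 3 mg/kg and control. Those of Grin2a differed by 1.11 and 0.73, against -2.19 for the one used.

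Between pancreas and liver the effect was higher in pancreas for Sf3a2 (3.59), Zbed4 (3.15), Col24a1 (2.93), Rab8a (2.44), Acd (2.36) and Smap2 (2.34). It was lower for Kcnj4 (-3.97), St6galnac3 (-3.72), a sialyltransferase, Arvcf (-3.61), a catenin, Fgf2 (-2.81), Tshr (-2.72), the thyrotropin receptor, and Engase (-2.71).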

How the results depend on the processing

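For 3 mg/kg against control, 0 genes passed with the mean of the probe sets, the filter, the compared groups only and without animals 29, 31 and 33. The count was 1 after quantile normalization, 86 with array weights and 7 for single probe sets, and 0 to 4 with 1 animal left out. From 3 to 60 mg/kg the count of 713 became 420 with the filter and 5 with only these groups, and ran from 302 to 855 with 1 animal left out. It was 646 after quantile normalization, 653 with the mean of the probe sets, 902 with array weights and 956 without animals 29, 31 and 33. For AMG B against AMG A it was 6 with array weights and 0 to 1 with 1 animal left out.

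For pancreas against adrenal the count of 27 became 8 after quantile normalization, 14 with the mean of the probe sets, 862 with array weights and 0 with only these tissues, and ran from 0 to 208 with 1 animal left out. For pancreas against liver the count of 48 became 14, 13, 980 and 0 under the same settings, and ran from 3 to 214. With the replicate block, pairing tissues by animal at a correlation of 0.0158, the counts were 36 and 77.

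As the mean of its probe sets the difference turned to 0.202 for Grin2a (pancreas against adrenal), -0.0960 for Vegfa, 0.00145 for Kdr and -0.433 for Flt1. With array weights it turned to -0.0309 for Ins1, -0.0751 for Ins2 and -0.0347 for Ifitm10, which was -0.0792 after quantile normalization. Flt4 was -0.0518 without animals 29, 31 and 33. With 1 animal left out the difference ran from -0.0369 to 0.253 for Flt4, -0.414 to 0.219 for Reg3b, -0.444 to 0.245 for Reg1a, -0.0317 to 0.204 for Ins1, -0.101 to 0.0956 for Ins2 and -0.0558 to 0.0519 for Ifitm10. The causes were not tested. Over all named genes and settings, 969 values kept their direction and their side of the threshold, 187 no longer passed, 25 newly passed and 25 reversed.

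Each group held 4 arrays, and signal over background is not known for these scores.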
